A study of Mus musculus with 8 samples.

Results

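The genes described here encode the oxygen-regulated subunits of the hypoxia-inducible factors (HIF) and the vascular endothelial growth factors (VEGF) with their receptors. They are 10 of the 17191 genes listed, chosen by symbol: Hif1a and Epas1 for the HIF subunits, Vegfa, Vegfb, Vegfc and Pgf for the ligands, Flt1, Kdr and Flt4 for the receptors, and Nrp1 for a co-receptor. Their mRNA was measured by RNA sequencing of whole hearts 4 weeks after the aorta had been surgically narrowed (transverse aortic constriction, TAC), which puts the left ventricle under pressure. There were 4 libraries from STAT3 S727A mice, whose STAT3 carries an alanine that cannot be phosphorylated in place of a serine, and 4 from wild-type mice (WT). Both groups had the operation, so every comparison is between genotypes under pressure load and none is with an unloaded heart. The labels do not divide the libraries by batch and give no strain, sex, age or tissue restriction of the mutation. Nothing in them says which animal a library came from, so a p-value here speaks only of how these libraries vary.

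In oxygenated cells HIF alpha subunits are hydroxylated and destroyed, and in hypoxia they are stabilised, pair with ARNT and switch on genes for blood vessel growth and anaerobic metabolism. Their activity is therefore set largely at the protein, which mRNA counts do not measure. In the heart VEGF-A made by myocytes acts on neighbouring endothelial cells, and the capillary supply it maintains is a known element of how the ventricle adapts to pressure. STAT3 is known as a transcriptional regulator of both Hif1a and Vegfa.

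Total counts were 10577619 to 13305124 per library. All 10 genes passed the filter on low counts, with 12988 others. Y-linked genes summed to 0.699 CPM, counts scaled to a common library size, in S727A 4 and 0.467 CPM in WT 4, against 158 to 186 CPM in the remaining libraries. Markers of lung and airway, a tissue that lies beside the heart, summed to 1.27 to 3.58 CPM in the S727A libraries, against 188 CPM in WT 1, 77.7 CPM in WT 4, 1.12 CPM in WT 2 and 3.81 CPM in WT 3. Of the 13 lung and airway markers, Scgb3a2 had 0 counts in all S727A libraries, WT 2 and WT 3. The airway genes Scgb1a1, Cyp2f2 and Bpifa1 gave the largest parts of the sums in WT 1 and WT 4, so these sums speak mainly of airway genes. The 6 adipocyte markers summed to 1.25 to 2.72 CPM in S727A, against 16.5 CPM in WT 2, 21.6 CPM in WT 4, 2.88 CPM in WT 1 and 1.17 CPM in WT 3. Markers of cardiomyocytes, which a library labelled heart should hold, summed to 88410 to 94680 CPM in S727A and 86820 to 122400 CPM in WT. Stat3 itself averaged 164 ± 6.74 CPM in the S727A libraries, against 201 ± 23.2 CPM in the WT libraries (SD, n = 4 each), a difference that did not pass (edgeR adjusted p = 0.155), and a changed codon need not alter its mRNA level.

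Promoter sequence from RefSeq on GRCm38.p6 was at hand for 9 of the 10 genes, in 11 windows that run from 250 bases before a transcription start to 50 bases after it. Epas1 was not among them. The upstream bases of 4 genes are shown because Hif1a separated the groups, Vegfa is the best known HIF target, and Flt1 and Kdr are the receptors that bind its product. Capitals mark ACGTG or GCGTG on either strand, the core letters of the hypoxia response element, which read CACGT or CACGC when the match lies on the opposite strand.
Hif1a, chr12:73907617-73907866, plus strand: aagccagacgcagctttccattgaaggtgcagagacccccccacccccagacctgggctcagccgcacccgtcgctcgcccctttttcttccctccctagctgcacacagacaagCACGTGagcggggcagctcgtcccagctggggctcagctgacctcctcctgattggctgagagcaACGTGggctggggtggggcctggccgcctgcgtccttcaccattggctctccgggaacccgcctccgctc
Vegfa, chr17:46032378-46032627, minus strand: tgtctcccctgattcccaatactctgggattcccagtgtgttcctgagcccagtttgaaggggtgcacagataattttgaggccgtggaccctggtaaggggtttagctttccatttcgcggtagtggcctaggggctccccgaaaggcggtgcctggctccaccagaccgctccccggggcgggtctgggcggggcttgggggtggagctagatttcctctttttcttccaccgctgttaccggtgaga
Flt1, chr5:147726012-147726261, minus strand: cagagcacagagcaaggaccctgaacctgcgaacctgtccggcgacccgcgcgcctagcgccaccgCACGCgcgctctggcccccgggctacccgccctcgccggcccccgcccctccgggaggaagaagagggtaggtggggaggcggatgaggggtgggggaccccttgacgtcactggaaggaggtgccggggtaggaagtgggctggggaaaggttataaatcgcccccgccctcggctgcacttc
Kdr, chr5:75978456-75978705, minus strand: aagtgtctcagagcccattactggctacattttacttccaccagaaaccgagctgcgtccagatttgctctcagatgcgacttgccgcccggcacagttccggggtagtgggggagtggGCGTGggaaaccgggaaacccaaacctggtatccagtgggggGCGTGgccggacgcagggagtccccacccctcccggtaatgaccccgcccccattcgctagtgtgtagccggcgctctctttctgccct
The Hif1a window shown lies before a start inside the gene, whose annotated span begins at 73901375, and not at that outer end. The last bases of this window, of the Vegfc window and of the other Vegfa window were in no annotated transcript of their gene. Those transcripts therefore do not bear out these starts. The Hif1a sequence held ACGTG at -70 to -66, counting the base before the start as -1, and also at -134 to -130. The match at -134 lies in the palindrome CACGTG, so it reads on both strands. Kdr held GCGTG at -131 and -89, and Flt1 held its reverse complement at -184. The Vegfa window shown held neither, and known hypoxia elements of that gene lie further upstream than it reaches. The other Vegfa window, before a start inside the gene (chr17:46025164-46025413), held GCGTG at -218 and the reverse complement of ACGTG at -211. At least one of these letter strings was present in 7 of the 11 windows of the family, against 44.0% of the 32544 windows in the table and 60.8% of windows of tested genes, so their presence does not set the family apart. The STAT consensus TTCNNNGAA, searched on both strands, was in 0 of the 11 windows, where 8.33% of all windows and 6.75% of windows of tested genes hold it. At such shares 11 windows are too few for a count of 0 to set the family apart. A match is a description of letters and shows no binding.

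Levels were compared between genes on the authors' FPKM values, which divide by transcript length. Vegfb, a ligand of FLT1 that is abundant in heart and muscle, had the highest level in all 8 libraries, with 295 ± 23.4 FPKM in S727A and 323 ± 28.6 FPKM in WT (SD, n = 4). Vegfa came next, with 123 ± 19.1 FPKM in S727A and 119 ± 14.9 FPKM in WT, and Epas1 held the third place. Nrp1, Flt1, Kdr and Hif1a formed a middle group with overlapping ranges, whose means over 8 libraries lay between 29.7 and 40.1 FPKM and whose order changed from library to library. Flt4 averaged 7.33 FPKM over all libraries, Vegfc 4.66 FPKM and Pgf 2.97 FPKM. The ranges of Vegfb and Vegfa, of Epas1 and Nrp1, and of Hif1a and Flt4 did not overlap, while other neighbours in the order did overlap over the 8 libraries.

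**Figure D1:**
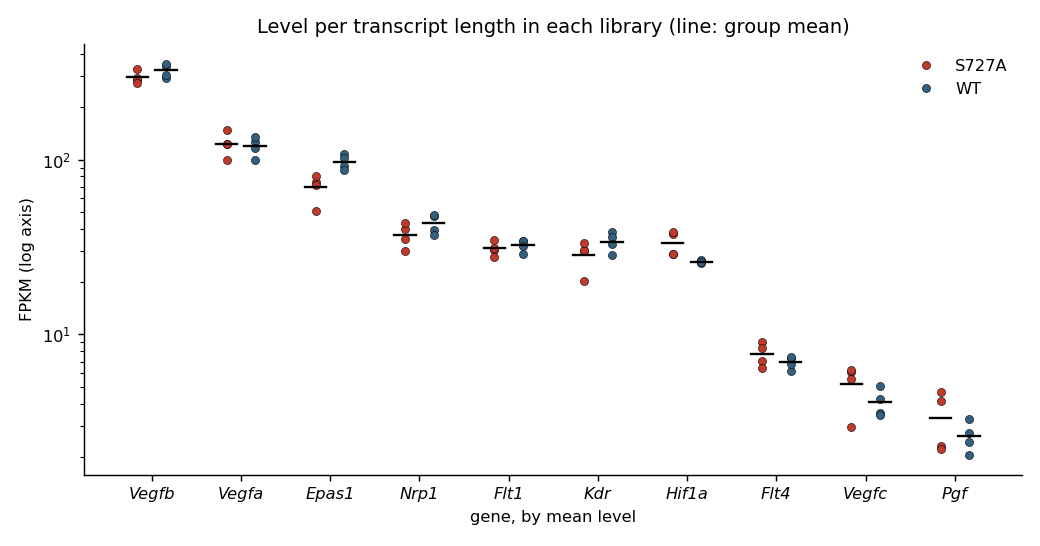
FPKM of each gene in every library on a log axis, S727A left of WT for each gene, with a line at the group mean. Vegfb and Vegfa lie above all other genes in every library and Vegfc and Pgf lie lowest, while Nrp1, Flt1, Kdr and Hif1a share a range.

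The comparison of genotypes asked how the mutation alters these genes in the loaded heart. None of the 10 genes passed the test (edgeR quasi-likelihood, Benjamini-Hochberg adjusted over 12998 genes, p from 0.131 to 0.784), where 0.146% of all tested genes passed. Unadjusted p was under 0.05 for 2 of them, Hif1a and Epas1, against 17.8% of all tested genes. The same 2 genes were those whose libraries did not overlap between the groups, against 8.43% of all tested genes (4.07% with S727A higher and 4.36% with S727A lower). DESeq2 called the same 2 genes, where it called 4.11% of the genes it tested, and limma voom called 0 of the 10 and 0.0462% of all genes. Epas1 alone of the 10 had a q-value under 0.05 in the authors' deposited table, against 2.61% of the genes with a q-value. Of the 10 log2 fold changes 5 were above 0 and 5 below, with a median of -0.015 for the family and -0.003 for all tested genes. The median size of the change, regardless of sign, was 0.219 for the family and 0.149 for all tested genes.

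**Figure D2:**
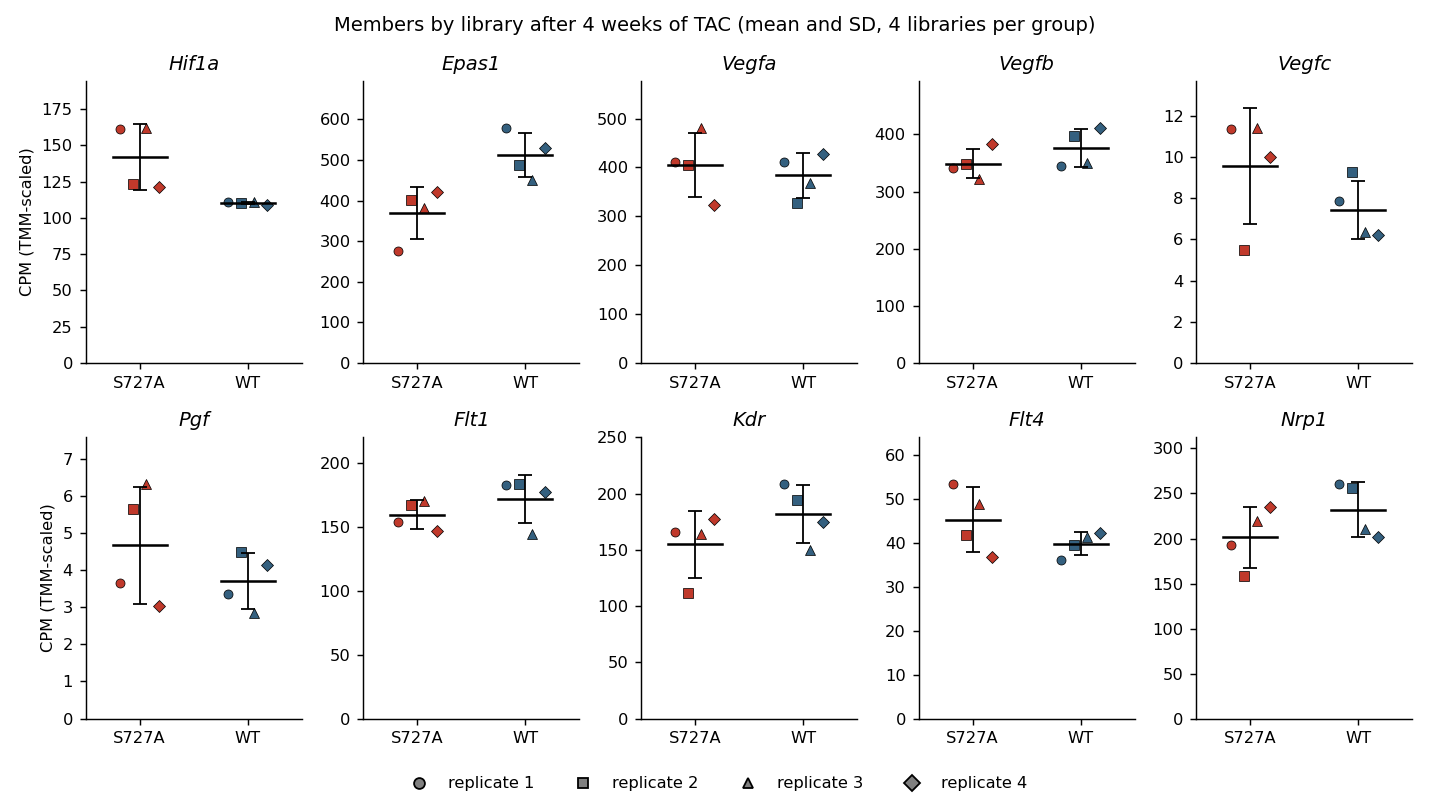
CPM of each gene in every library, S727A left of WT, with symbols for replicate numbers, a line at the mean and bars of 1 SD (n = 4 per group). All S727A libraries lie above all WT libraries for Hif1a and below them for Epas1, and the groups overlap for the other genes.

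Hif1a (gene 15251, chromosome 12, 73901375 to 73947530, plus strand, GRCm38) encodes HIF-1 alpha, the subunit found in nearly all cells. It was at 161, 123, 162 and 122 CPM in S727A 1 to 4, against 111, 110, 111 and 109 CPM in WT 1 to 4. The groups did not overlap, with S727A 1 and S727A 3 well apart and S727A 2 and S727A 4 nearer to WT. The log2 fold change was 0.37 ± 0.11 (SE), a 1.29-fold difference with a 95% interval of 1.09 to 1.51 (edgeR adjusted p = 0.139). The exact two-sided permutation test of mean log2 CPM gave p = 0.0286, the smallest that 4 against 4 libraries allow. Any gene whose libraries do not overlap between the groups, Epas1 included, gets this p, so it adds nothing to that separation. The 4 WT values spread by 0.901% of their mean, less than the 2.76% that counting error alone gives at these counts, while the S727A values spread by 15.9%.

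The call of Hif1a depended on the method and on S727A 4. DESeq2 gave an adjusted p of 0.0499, and edgeR without S727A 4 one of 0.0435 with a log2 fold change of 0.43, where 4.71% of all genes were called. S727A 4 and WT 4 were the libraries almost lacking Y-linked reads. Without both, Hif1a had a log2 fold change of 0.43 and did not pass (edgeR adjusted p = 0.0775). The log2 fold change was smaller with the endothelial marker covariate (0.24, edgeR adjusted p = 0.398). Without S727A 1 it was 0.298 (edgeR adjusted p = 0.308), as it was without S727A 3. Over all 20 alternatives the adjusted p of Hif1a ran from 0.0435 to 0.494 and its log2 fold change from 0.24 to 0.43. Its exons share 330 bases with the antisense gene Gm15283 and 148 bases with Gm49321 on the same strand, neither of which the count table lists. The libraries were stranded, per the labels, but the sources used here do not say whether counting used the strand.

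Epas1 (gene 13819, chromosome 17, 86753700 to 86833410, plus strand) encodes HIF-2 alpha, a subunit found chiefly in endothelial and some other vascular and interstitial cells. It was at 276, 400, 382 and 421 CPM in S727A 1 to 4, against 579, 488, 451 and 529 CPM in WT 1 to 4. No S727A library reached the lowest WT value, and S727A 1 stood furthest off. The log2 fold change was -0.47 ± 0.13 (SE), a fold of 0.723 with a 95% interval of 0.594 to 0.880 (edgeR adjusted p = 0.131, exact permutation p = 0.0286). DESeq2 gave an adjusted p of 0.0271 and the authors' deposited table a q-value of 0.0357, and over the 20 alternatives the adjusted p ran from 0.0271 to 0.516.

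The highest Epas1 values were those of WT 1 and WT 4, which also held most of the airway transcripts. Without both, the log2 fold change was -0.34 (edgeR adjusted p = 0.516), and WT 2 and WT 3 still lay above all S727A libraries. It was -0.40 without WT 1 alone (edgeR adjusted p = 0.321), -0.45 without WT 4 alone (edgeR adjusted p = 0.191) and -0.37 with the summed lung and airway markers as a covariate (edgeR adjusted p = 0.465). Without S727A 1 alone it was -0.35 (edgeR adjusted p = 0.240), the smallest change with any single library left out. The endothelial marker covariate gave -0.40 (edgeR adjusted p = 0.36). Adipocyte markers were highest in WT 2 and WT 4. Without WT 2 the log2 fold change was -0.49 (edgeR adjusted p = 0.262), and WT 1 and WT 3, the other WT libraries, also lay above all S727A libraries. Markers of pericytes and smooth muscle, cells of the vessel wall, summed to 1226 to 1500 CPM in S727A and 1566 to 2232 CPM in WT, and all 10 of them had a fold below 0. Rgs5 and Abcc9 gave the largest parts of that sum, and each overlapped between the groups. Of the 10 markers Kcnj8 alone did not overlap. Summed markers of endothelial cells, of which Cd36 gave the largest part, overlapped, at 3062 to 3317 CPM in S727A and 3070 to 3516 CPM in WT. In whole tissue fewer cells of a type and less RNA per cell cannot be told apart.

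Within each library the ratio of Hif1a to Epas1, in FPKM, combined both differences. It was 0.739, 0.387, 0.536 and 0.358 in S727A 1 to 4, against 0.236, 0.286, 0.305 and 0.255 in WT 1 to 4. The groups did not overlap, and Epas1 remained the more abundant of the pair in every library. As a ratio of the 2 genes that separate the groups it adds no independent evidence.

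**Figure D3:**
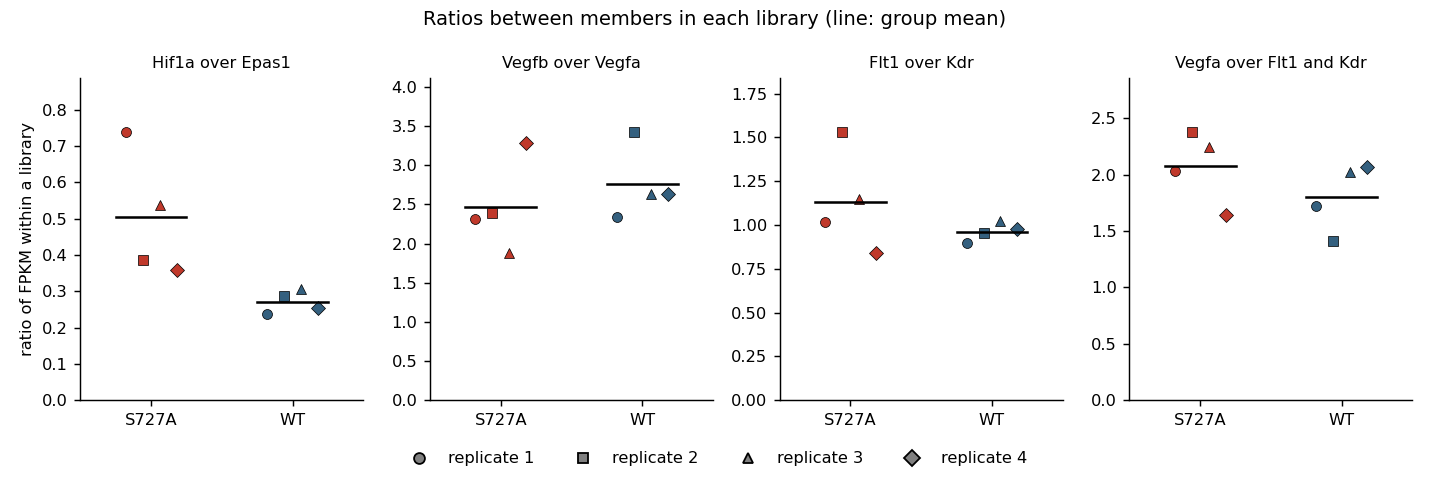
Ratios of FPKM between genes within each library, S727A left of WT, with a line at the group mean. The ratio of Hif1a to Epas1 is 0.358 to 0.739 in S727A and 0.236 to 0.305 in WT, and the other ratios overlap between the groups.

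Vegfa (gene 22339, chromosome 17, 46016993 to 46032369, minus strand) encodes the principal growth factor for blood vessels. It was at 411, 405, 481 and 323 CPM in S727A 1 to 4, against 412, 327, 369 and 427 CPM in WT 1 to 4. The groups overlapped fully and the lowest value of all was that of S727A 4. The log2 fold change was 0.08 ± 0.12 (SE) with a 95% interval of -0.19 to 0.35 (edgeR adjusted p = 0.784), which leaves room for a fold of 0.874 to 1.27. Across the 20 alternatives it ran from -0.03 with the endothelial marker covariate (edgeR adjusted p = 0.944) to 0.23 without both S727A 4 and WT 4 (edgeR adjusted p = 0.256). The gene makes several splice forms that gene counts add together.

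Vegfb (gene 22340, chromosome 19, 6982473 to 6987651, minus strand) was at 342, 348, 323 and 383 CPM in S727A, against 345, 398, 350 and 411 CPM in WT. The groups overlapped, and the log2 fold change of -0.11 ± 0.09 (SE) had a 95% interval of -0.31 to 0.09 (edgeR adjusted p = 0.564). It was -0.07 without S727A 3 (edgeR adjusted p = 0.799) and -0.06 without WT 4 (edgeR adjusted p = 0.759). Vegfb exceeded Vegfa 1.88-fold to 3.29-fold in S727A and 2.34-fold to 3.43-fold in WT, in FPKM. Vegfa and Vegfb are the ligands with the narrowest limits on a difference between the genotypes.

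The remaining ligands were scarce. Vegfc (gene 22341, chromosome 8, 54077606 to 54187096, plus strand), which acts on FLT4 and the lymphatic vessels, was at 11.4, 5.48, 11.4 and 10.02 CPM in S727A, against 7.86, 9.27, 6.37 and 6.23 CPM in WT. S727A 2 was the lowest of all libraries and the other S727A libraries were the highest. The log2 fold change was 0.37 ± 0.23 (SE, 95% interval -0.13 to 0.87, edgeR adjusted p = 0.418), 0.56 without S727A 2 (edgeR adjusted p = 0.255) and 0.19 with the endothelial marker covariate (edgeR adjusted p = 0.809). Pgf (gene 18654, chromosome 12, 85166635 to 85177790, minus strand) encodes placental growth factor, a ligand of FLT1. It had 35 to 71 counts per library and was at 3.66, 5.64, 6.33 and 3.03 CPM in S727A, against 3.35, 4.49, 2.85 and 4.13 CPM in WT. S727A 2 and S727A 3 were above all other libraries, and the log2 fold change of 0.33 ± 0.26 (SE, 95% interval -0.24 to 0.90) did not pass (edgeR adjusted p = 0.536). It was 0.15 without S727A 3 (edgeR adjusted p = 0.840), 0.22 without WT 3 (edgeR adjusted p = 0.706) and 0.55 without both S727A 4 and WT 4 (edgeR adjusted p = 0.259). At this depth counting error alone spreads Pgf by 15.1% in WT, where the observed spread was 19.99%.

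Flt1 (gene 14254, chromosome 5, 147561604 to 147726011, minus strand) encodes VEGF receptor 1, which binds VEGF-A tightly and also exists as a secreted decoy that gene counts cannot set apart. It was at 154, 167, 170 and 147 CPM in S727A, against 183, 184, 144 and 177 CPM in WT. Apart from WT 3, the lowest of all, every WT library lay above every S727A library. Flt1 had a log2 fold change of -0.11 ± 0.10 (SE, 95% interval -0.32 to 0.10, edgeR adjusted p = 0.590), and -0.18 without WT 3 (edgeR adjusted p = 0.284). It lay nearer to 0 without S727A 4 (-0.07, edgeR adjusted p = 0.721), without both S727A 4 and WT 4 (-0.06, edgeR adjusted p = 0.794), without both WT 1 and WT 4 (-0.04, edgeR adjusted p = 0.926) and with the lung marker covariate (-0.07, edgeR adjusted p = 0.865).

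Kdr (gene 16542, chromosome 5, 75932827 to 75978458, minus strand), VEGF receptor 2, carries most of the growth signal in endothelial cells. It was at 166, 112, 165 and 178 CPM in S727A, against 209, 195, 150 and 175 CPM in WT. S727A 2 stood below all other libraries, and the rest of the groups overlapped. Its log2 fold change, -0.23 ± 0.15 (SE, 95% interval -0.56 to 0.09, edgeR adjusted p = 0.427), was -0.10 without S727A 2 (edgeR adjusted p = 0.740), -0.15 without both WT 1 and WT 4 (edgeR adjusted p = 0.803) and -0.14 with the lung marker covariate (edgeR adjusted p = 0.795). The ratio of Flt1 to Kdr was 1.53 in S727A 2, against 0.839 to 1.15 in the other S727A libraries and 0.899 to 1.02 in WT.

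Nrp1 (gene 18186, chromosome 8, 128358604 to 128503363, plus strand) encodes neuropilin 1, which presents VEGF-A to KDR and also binds class 3 semaphorins. It was at 193, 158, 220 and 235 CPM in S727A, against 261, 256, 210 and 201 CPM in WT. S727A 2 was again the lowest of all libraries, and WT 1 and WT 2 were the highest. Nrp1 had a log2 fold change of -0.20 ± 0.13 (SE, 95% interval -0.49 to 0.08, edgeR adjusted p = 0.433), against -0.10 without S727A 2 (edgeR adjusted p = 0.748) and -0.35 without both S727A 4 and WT 4 (edgeR adjusted p = 0.159). The endothelial markers, which include none of these genes, summed to 3216 CPM in S727A 2, within the range of the other libraries. Cd36 alone gave 1357 CPM of that sum, and single markers differed. In S727A 2 Vwf, Emcn and Tek were the lowest of all libraries, and Pecam1 and Ly6c1 the highest. Whether S727A 2 held fewer endothelial cells was not tested.

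Flt4 (gene 14257, chromosome 11, 49609263 to 49652739, plus strand), VEGF receptor 3 of lymphatic and some capillary endothelium, was at 53.5, 41.8, 48.9 and 36.7 CPM in S727A, against 36.1, 39.5, 41.4 and 42.1 CPM in WT. S727A 1 and S727A 3 were above all WT libraries and S727A 4 was next to the lowest, WT 1. Flt4 had a log2 fold change of 0.18 ± 0.12 (SE, 95% interval -0.07 to 0.44, edgeR adjusted p = 0.435). It was 0.09 without S727A 1 (edgeR adjusted p = 0.754), 0.05 with the endothelial marker covariate (edgeR adjusted p = 0.889) and 0.30 without both S727A 4 and WT 4 (edgeR adjusted p = 0.159). Lymphatic endothelial markers summed to 164 to 251 CPM in S727A and 172 to 220 CPM in WT, with the highest sum, as for Flt4, in S727A 1. Kdr exceeded Flt4 2.86-fold to 5.18-fold in S727A and 3.87-fold to 6.19-fold in WT, in FPKM.

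**Figure D4:**
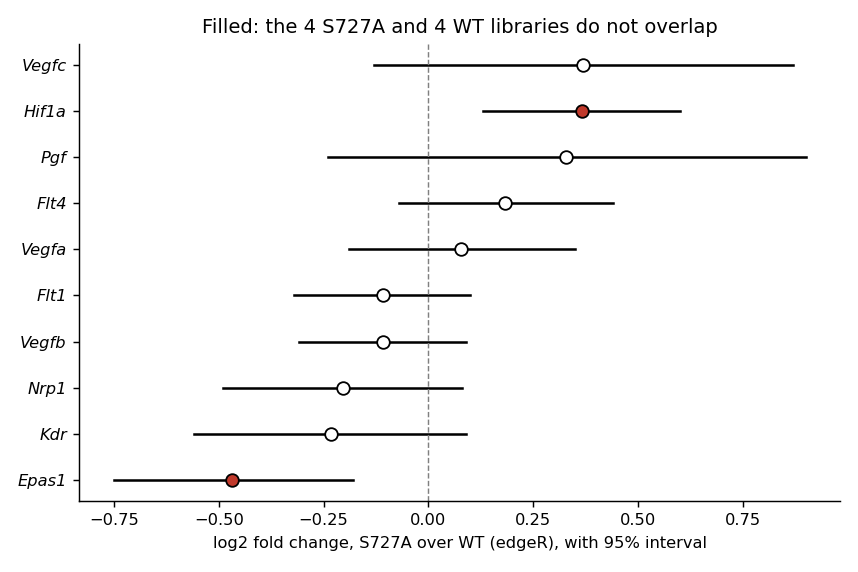
Log2 fold change of each gene, S727A over WT, with its 95% interval from edgeR. Filled points mark Hif1a and Epas1, whose libraries do not overlap between the groups, and the intervals of the other genes include 0.

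Genes that act with HIF and VEGF were read as lists, by counts and medians beside the median of -0.003 over all tested genes. Of 15 HIF regulators 0 passed (7 folds above 0, median -0.025). Those with the smallest p encode the coactivators that HIF recruits. Ep300 had 84.7 CPM in S727A hearts against 109 CPM in WT hearts, without overlap of the libraries (log2 fold change -0.36 ± 0.11, SE, edgeR adjusted p = 0.138), and Crebbp had 35.5 CPM in S727A and 42.8 CPM in WT (-0.27 ± 0.10, SE, edgeR adjusted p = 0.201). Named for their place in the pathway after their values were seen, the partner subunit gene Arnt had a log2 fold change of -0.02 ± 0.08, the HIF hydroxylase gene Egln1 one of -0.25 ± 0.10, and Egln3, itself a HIF target, one of 0.32 ± 0.20 (SE). The edgeR adjusted p were 0.904, 0.223 and 0.413.

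Of 28 tested HIF target genes 0 passed, with 21 folds above 0 and a median of 0.138. The members of smallest p were Pgk1, a glycolytic enzyme gene with 451 CPM in S727A hearts against 374 CPM in WT hearts (log2 fold change 0.27 ± 0.10, SE, edgeR adjusted p = 0.187), and Lox, a collagen crosslinking enzyme gene with 36.1 CPM in S727A hearts against 11.8 CPM in WT hearts (1.60 ± 0.55, SE, edgeR adjusted p = 0.209). Both overlapped between the groups. Lox is also a gene of fibroblasts, whose markers summed to 4044 to 4555 CPM in S727A and 3077 to 4353 CPM in WT, and the part of those cells was not tested.

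On the VEGF side 0 of 7 other ligands and co-receptors passed (5 folds above 0, median 0.141). Gpc1, a heparan sulfate proteoglycan gene, had 525 CPM in S727A hearts against 649 CPM in WT hearts, without overlap (log2 fold change -0.31 ± 0.09, SE, edgeR adjusted p = 0.136), and the value for the integrin gene Itgb3 was 0.59 ± 0.23 (SE, edgeR adjusted p = 0.216). To complete the family, and after their values were seen, Vegfd had 4.24 CPM in S727A hearts against 4.95 CPM in WT hearts (edgeR adjusted p = 0.607), and Nrp2 had 76.1 CPM in S727A hearts against 60.1 CPM in WT hearts (edgeR adjusted p = 0.272). Genes of VEGF receptor signalling gave 0 of 21 (15 folds above 0, median 0.092). Among them Shb, an adaptor that binds KDR, had a log2 fold change of 0.61 ± 0.18 and the kinase gene Akt1 one of 0.37 ± 0.11 (SE, edgeR adjusted p of 0.143 and 0.153).

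Semaphorins and plexins, the other partners of neuropilin, gave 0 of 11 (6 folds above 0, median 0.000), with Sema3b at 0.37 and Sema3f at 0.67. Angiopoietin and TIE genes gave 0 of 6 (2 folds above 0, median -0.210), with Tek at -0.20 and Angptl2 at -0.22 as log2 fold changes. Genes of tip cells and sprouting gave 0 of 17 (6 folds above 0, median -0.077). In that list the Notch ligand gene Jag1 had 15.1 CPM in S727A hearts against 20.8 CPM in WT hearts, without overlap (log2 fold change -0.47 ± 0.15, SE, edgeR adjusted p = 0.155), and that of the chemokine gene Cxcl12 was -0.47 ± 0.15 (SE, edgeR adjusted p = 0.159).

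Among the marker lists of cells that hold these receptors, 0 of 16 endothelial genes passed (9 folds above 0, median 0.038), with Cldn5 at 1.31 and Mmrn2 at -0.29 as log2 fold changes. Of 7 lymphatic genes 0 passed (5 folds above 0, median 0.238). Ccl21a, a lymphatic chemokine gene, had 47.1 CPM in S727A hearts against 31.1 CPM in WT hearts without overlap (edgeR adjusted p = 0.156). Pdpn had a log2 fold change of 0.50 (edgeR adjusted p = 0.203). The 2 lymphatic genes below 0, named after their values were seen, were Prox1 at -0.27 and Lyve1 at -0.40. Of the 10 pericyte and smooth muscle genes 0 passed, with a median of -0.280, led by Kcnj8 at -0.35 and Acta2 at -0.80. The same count of 0 of 10 held for macrophage genes (0 folds above 0, median -0.526, with Csf1r at -0.63 and Cd163 at -0.80), for fibroblast genes (8 folds above 0, median 0.277, with Col1a2 at 0.65 and Col3a1 at 0.62) and for cardiomyocyte genes (3 folds above 0, median -0.174, with Ryr2 at -0.31 and Atp2a2 at -0.47). Of 7 atrial genes 0 passed (2 folds above 0, median -0.670, with Stard10 at -0.73 and Kcnj3 at -0.77). Nppa, the most abundant atrial gene in CPM and named after its values were seen, was among those above 0, at 0.89 (edgeR adjusted p = 0.398). Of 4 Y-linked genes 0 passed, as did 0 of 1 tested red cell gene. No adipocyte or lung gene passed the filter, which asks for enough counts in at least 4 libraries. Scgb1a1, an airway secretory gene, had 0 to 4 counts in S727A, against 863 in WT 1, 344 in WT 4, 12 in WT 3 and 1 in WT 2.

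**Figure D5:**
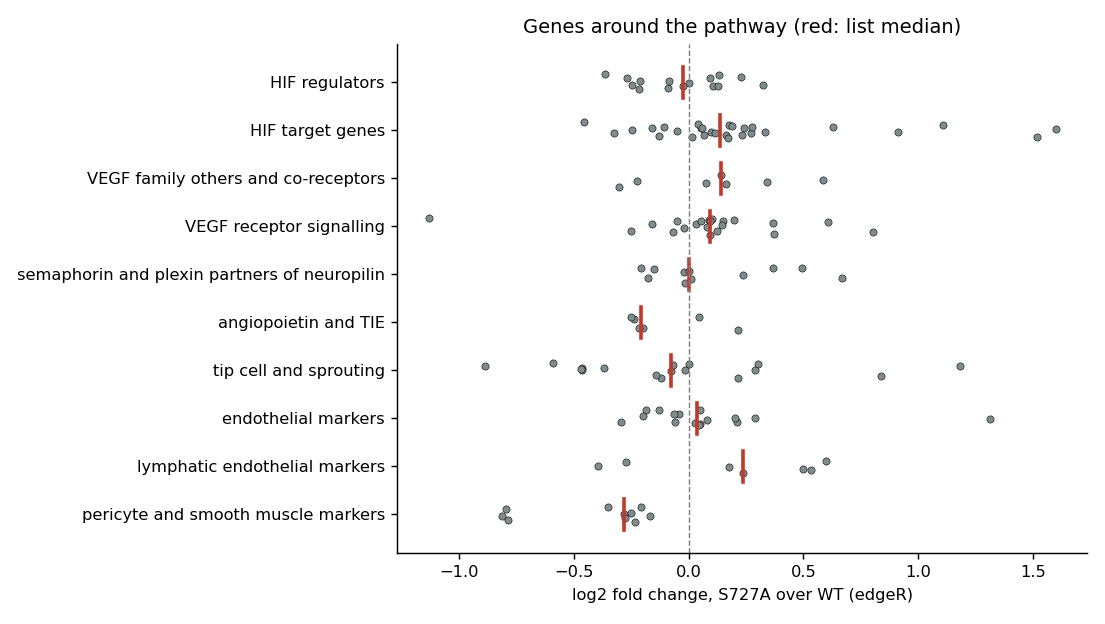
Log2 fold change, S727A over WT, of every tested gene in 10 lists around the HIF and VEGF pathway, with the list median in red. The medians lie between -0.280 for pericyte and smooth muscle genes and 0.238 for lymphatic genes, and 0 genes in any list passed the test.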

How the data were processed

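For every gene and library the deposited table gave an estimated count, as its headers and values show, of which 6.06% to 7.62% per library were fractional (tolerance 1e-06). The authors also deposited FPKM values, and a log2 ratio of S727A over WT with a p-value and q-value, from tools that the sources used here do not give. FastQC, HISAT2, Bowtie2 and GRCm38.p6 are named in the submitters' processing notes, without roles. Columns were matched to samples by name and groups came from the titles.

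Estimated counts were rounded and kept by filterByExpr of edgeR (minimum count 10 and minimum total 15, which left 12998 genes) with TMM scaling. Genotype was the only term in the edgeR 4.0.16 quasi-likelihood F test (R 4.3.3, robust, legacy mode, two-sided, adjusted p under 0.05). Standard errors and intervals came from the F statistic. CPM was computed on TMM-scaled totals, and log2 CPM with 2 as prior count. The fit was tested on simulated data. Pairs of libraries gave a chi-square per degree of freedom of 9.13 to 38.99, so none repeated another. Same-numbered libraries were not treated as pairs. Their deviations correlated by -0.102 to 0.071, against -0.253 to 0.178 for libraries with different numbers. So few correlations cannot show whether libraries were matched.

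Alternatives were RLE scaling, no filter, a stricter filter, DESeq2 1.42.0, limma 3.58.1 (voom, and trend on log2(FPKM + 1)), the other quasi-likelihood mode, a replicate block, covariates for endothelial and for lung markers, and libraries left out singly or in pairs. GENCODE M21 on GRCm38 gave gene coordinates. The genes and lists were chosen with earlier results of these data known. From each list were named up to 4 genes past the threshold or, where none passed, the 2 of smallest p.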

Additional observations from a re-analysis of the deposited data

Results flagged for a closer look

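Within a group of 4 libraries, 1 value of the 36 groups of CPM values and ratios examined lay far from the rest. Flt1 in WT 3 was at 144 CPM, where the other WT libraries were at 183, 184 and 177 CPM. About 5% of groups would show such a gap by chance. Without WT 3 the log2 fold change of Flt1 was -0.18 in place of -0.11. WT 3 also had the lowest Kdr, Epas1 and Pgf of the WT libraries.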

How the results depend on the processing

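Hif1a, Epas1, Vegfb, Vegfc, Pgf, Flt1, Kdr, Flt4 and Nrp1 kept the direction of their fold change in all 20 alternatives. Vegfa changed sign in 2, with -0.0326 under the endothelial marker covariate and -0.0129 without S727A 3, and its values with single libraries left out ran from -0.0129 to 0.1729. The number of the 10 genes past the threshold was 2 in DESeq2 (Hif1a and Epas1), 0 to 1 when single libraries were left out (1, Hif1a, without S727A 4) and 0 otherwise. The counts over all genes depended far more on the settings. Against 6 higher and 13 lower, they were 11 and 16 without a filter, 286 and 248 in DESeq2, 0 and 6 in limma voom, and 1 and 5 in limma trend on FPKM. They were 4 and 2 with the endothelial covariate. They were 0 and 0 both with the lung marker covariate and without WT 1 and WT 4, where 1338 and 1307 genes had an unadjusted p under 0.05. Without S727A 4 and WT 4 they were 107 and 135. Leaving out single libraries gave 0 to 297 higher and 0 to 320 lower, with the highest counts without S727A 4 and without WT 3 (164 and 111), and with 0 of either without S727A 1, S727A 3 or WT 1, where 1762, 1704 and 1576 genes had an unadjusted p under 0.05. With the replicate block they were 0 and 2, and no call of the 10 genes changed. The titles share only a number, so whether this block is a pairing is not known. Vegfb minus Pgf was 6.32 on log2(FPKM + 1) and 6.71 with a pseudocount of 0.1. The cause of these differences was not tested. For Pgf and Vegfc depth limits what can be seen, since counting error alone is 15.1% and 10.7% of the WT mean.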
